A study of Mus musculus with 16 samples.

Results

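The 53 genes described here encode the machinery that copies DNA and the enzymes that supply its nucleotides. They are a list of names from origin recognition to chromatin assembly behind the fork, drawn up with earlier results of these data known, and no measured value entered the rule. All 53 were among the 30386 genes of the table and among the 12533 genes tested, and each had more than 3 reads in every one of the 16 samples. Their RNA was measured in neural stem/progenitor cells (NSPCs) from the subventricular zone (SVZ) of C57BL/6 J/Babr mice of 3 months of age. The 8 *Dbx2*-NSPC samples carried a plasmid transgene for the homeobox factor Dbx2, expressed constitutively, and the 8 *GFP*-NSPC samples carried a GFP transgene in the same plasmid backbone. Both kinds of line had been made by transfection and kept under puromycin, and both were grown as non-adherent cultures, which form neurospheres. The study used more than one independently derived pair of lines, but the sample labels number the replicates of each transgene 1 to 8 and give no line, so p-values below measure the spread between these samples. Mitochondrial genes took 3.19% to 6.96% of the CPM in *GFP*-NSPCs and 4.17% to 8.17% in *Dbx2*-NSPCs, and the part of this difference in the results below was not tested.

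Replication starts at origins bound by the origin recognition complex, where Cdc6 and Cdt1 load the ring of Mcm2 to Mcm7 onto DNA in G1. Kinases then recruit Cdc45 and the GINS complex, the helicase opens the strands, polymerase alpha with primase lays down primers, and polymerases delta and epsilon extend them on the PCNA clamp. Many of these genes are transcribed in waves in cycling cells, with E2F factors among their known regulators. In the adult SVZ, activated stem cells and transit amplifying progenitors are the cells that replicate their DNA, whereas quiescent stem cells do not.

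*Dbx2* RNA was higher in *Dbx2*-NSPCs, with reservations. *Dbx2* lay between 30.67 and 171.22 CPM (reads scaled to the sample's total) in *GFP*-NSPCs and between 114.0 and 232.13 CPM in *Dbx2*-NSPCs, and the table does not separate the transgene from the endogenous gene. The groups were apart in the samples numbered 5 to 8, with 30.67 to 39.48 against 114.0 to 155.22 CPM, and they overlapped in those numbered 1 to 4, with 89.31 to 171.22 against 135.99 to 232.13 CPM. The log2 fold change of *Dbx2* was 1.26 over all samples (limma adjusted p = 0.00978). It was 1.99 in numbers 5 to 8 (limma adjusted p = 5.67e-08), and 0.54 in numbers 1 to 4, where it did not pass (limma adjusted p = 0.0891). The difference of 1.45 between these sets passed (limma adjusted p = 1.04e-04). The values of most calls below are therefore also given for these sets of samples. Stem and progenitor markers were present, 9 of 10 above the floor of 3 reads in every sample with *Prom1* at or under it. Microglial markers summed to at most 1.96 CPM and endothelial and pericyte markers to at most 8.39 CPM in any sample. The summed levels of other marker lists were shifted between the groups with ranges that overlapped, and no test was run on them. The 5 astrocyte markers, of which 3 were above the floor in every sample, summed to 243 to 525 CPM in *GFP*-NSPCs and 121 to 260 CPM in *Dbx2*-NSPCs. Those of the oligodendrocyte lineage (3 of 8 above the floor in every sample, *Sox10*, *Mag* and *Mog* at or under it) summed to 63.3 to 148 and 112 to 223 CPM. The neuroblast and neuron markers (2 of 7 above it, *Stmn2* at or under it) summed to 840 to 1294 and 706 to 906 CPM, and the 10 stem and progenitor markers to 5578 to 7159 and 4336 to 5966 CPM. The ependymal markers (1 of 3 above the floor in every sample, *Tmem212* at or under it) summed to 9.56 to 21.35 and 14.35 to 34.67 CPM. The part of these shifts in the members' values was not tested.

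Across the members, RNA levels were lower in *Dbx2*-NSPCs by a small amount. Of the 53 genes, 10 fell (18.9%) and 0 rose at a limma adjusted p under 0.05, beside 7.78% of all tested genes that fell and 8.03% that rose. At an unadjusted p under 0.05, 18 were lower (34%) and 1 was higher (1.89%), beside 15.1% and 14.1% of all tested genes. On the recovered reads, edgeR called 9 lower and 0 higher, beside 7.01% and 8.38% of tested genes, and DESeq2 10 lower and 0 higher, beside 8.11% and 9.42%. The log2 fold change was negative for 48 members, 90.6%, against 52.7% of all tested genes, and for 46 or 47 under the other scalings tried. Its median was -0.21 over the members and -0.022 over all tested genes, and the values ran from -0.67 for *Cdc45* to 0.42 for *Pole2*. The samples of both groups overlapped for every member, so that 0 of 53 were apart, beside 1.81% of tested genes with no overlap and lower levels and 1.6% with no overlap and higher levels. In bulk RNA, fewer cells in S phase and less of these RNAs per cell cannot be told apart.

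**Figure D1:**
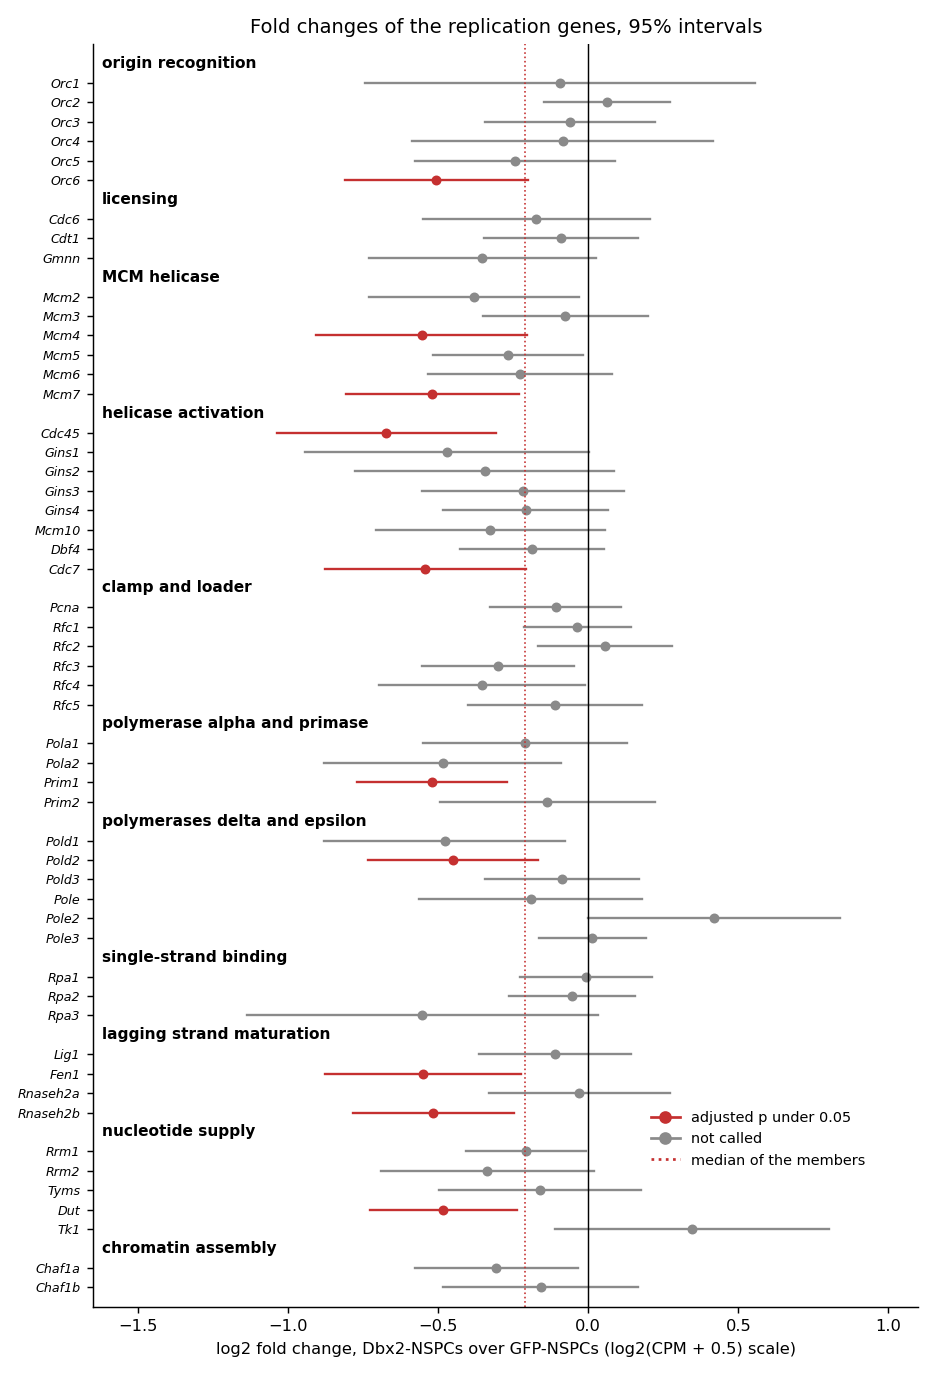
Log2 fold change (horizontal axis, *Dbx2*-NSPCs over *GFP*-NSPCs on the log2(CPM + 0.5) scale) of the 53 replication genes by functional class, with 95% confidence intervals from 8 samples in each group. The 10 called genes are in red, the dotted line marks the members' median of -0.21, and 48 of the 53 points lie left of 0.

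Several libraries stood apart across the members. *GFP*-NSPC replicate 1 gave the lowest *GFP*-NSPC level for 25 of the 53 genes, and *Dbx2*-NSPC replicate 8 gave the highest *Dbx2*-NSPC level for 38. *Dbx2*-NSPC replicate 5 was lowest in its group for 22 genes. How often these libraries were extreme over all tested genes is not given here, so these counts may not be particular to the members. Without *GFP*-NSPC replicate 1, 11 members fell and 0 rose, beside 9% and 8.63% of tested genes, and the median log2 fold change was -0.28. Without *Dbx2*-NSPC replicate 8, 13 members fell and 0 rose, beside 7.29% and 7.3% of tested genes, with a median of -0.24. Without *Dbx2*-NSPC replicate 5, 7 members fell and 0 rose, beside 816 and 868 of the 12533 tested genes, with a median of -0.17. These libraries were picked by their levels of these same genes, so the direction of these changes followed from the choice. The totals of *GFP*-NSPC replicate 1 and *Dbx2*-NSPC replicate 8, 2482211 and 2961771 reads, lay inside the range of all samples, 1804661 to 3294873 reads. *GFP*-NSPC replicate 1 also had the highest *Dbx2* level of its group, 171.22 CPM, and the group's highest mitochondrial share, 6.96%. The part of these traits in its values was not tested.

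A score for each sample, the mean log2(CPM + 0.5) of the 53 members less the mean over all tested genes, shows the same libraries. In *GFP*-NSPCs the score was 1.33 ± 0.149 (SD, n = 8), with a lowest value of 1.04, a median of 1.36 and a highest of 1.47. In *Dbx2*-NSPCs it was 1.08 ± 0.196 (SD, n = 8), with a lowest value of 0.810, a median of 1.05 and a highest of 1.45. The groups overlapped through the low *GFP*-NSPC replicate 1 and the high *Dbx2*-NSPC replicate 8. Compared by number, the *Dbx2*-NSPC sample was lower in 8 of 8 comparisons, by as little as 0.0071 at number 8 and as much as 0.478 at number 5. The difference between the group means was -0.257 over all samples, -0.250 in the samples numbered 1 to 4 and -0.264 in those numbered 5 to 8. No p is given for this score, since it is a mean over chosen genes.

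**Figure D2:**
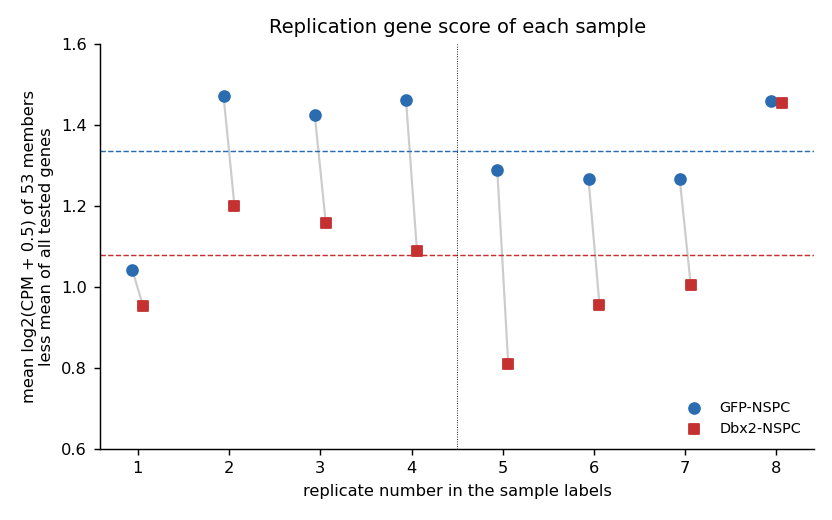
Mean log2(CPM + 0.5) of the 53 members less the mean of all tested genes (vertical axis) in each sample, by the replicate number of the labels, with *GFP*-NSPCs as blue circles, *Dbx2*-NSPCs as red squares and group means as dashed lines. The *Dbx2*-NSPC sample is lower at all 8 numbers, and at number 8 the values are 1.46 and 1.45.

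Promoters of the members were searched for E2F letters, because E2F factors are known regulators of these genes. RefSeq (GRCm38.p6) gave windows from 250 bases before to 50 after the start for 44 of the 53 members. The remaining members are *Gins1*, *Gins2*, *Gins4*, *Gmnn*, *Mcm4*, *Pole*, *Prim2*, *Rfc2* and *Rnaseh2b*. The letters TTTCCCGC, TTTCGCGC, TTTGCCGC and TTTGGCGC, on both strands, were in 15 of the 53 windows (28.3%), against 2.26% of all 32851 windows of the same length. By gene, 15 of 44 members (34.1%) had a match in at least 1 window, against 2.61% of 27025 genes. Of the members called lower, 1 of 8 with a window had a match, and of those not called 14 of 36 had one. The CCAAT box, searched as CCAAT, was in 50.9% of members' windows and 37.4% of all windows, and the cell cycle element CHR, searched as TTTGAA, in 15.1% and 17.9%. By gene, 4 of the 8 called members (*Cdc45*, *Cdc7*, *Fen1* and *Pold2*) and 3 of the 36 others had TTTGAA in a window. That is 15.9% of the 44 members, against 20.2% of all 27025 genes. Genes with several windows, such as *Fen1* and *Pold2*, had more letters searched. A match is a description of letters and not of binding.

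Of the 6 members with a match and the smallest adjusted p, 4 had it in the 250 bases before the start, and these are shown so that the letters can be seen in place, with matches in capitals. *Pold1* and *Pole2* had theirs past the start. The sequences run 5′ to 3′ on the gene's own strand, *Mcm7* at chr5:138171884-138172133 (minus strand), *Rfc3* at chr5:151651209-151651458 (minus strand), *Mcm5* at chr8:75109259-75109508 (plus strand) and *Mcm6* at chr1:128359706-128359955 (minus strand). *Mcm7* was called lower and the other three were not. The capitals of *Mcm5* and the first run of *Mcm6* each hold a pair of matches on opposite strands that overlap.
Mcm7: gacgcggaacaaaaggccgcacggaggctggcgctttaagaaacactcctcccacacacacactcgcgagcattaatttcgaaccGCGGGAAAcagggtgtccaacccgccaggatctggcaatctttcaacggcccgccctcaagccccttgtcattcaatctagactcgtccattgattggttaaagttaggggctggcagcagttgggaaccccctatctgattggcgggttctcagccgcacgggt
Rfc3: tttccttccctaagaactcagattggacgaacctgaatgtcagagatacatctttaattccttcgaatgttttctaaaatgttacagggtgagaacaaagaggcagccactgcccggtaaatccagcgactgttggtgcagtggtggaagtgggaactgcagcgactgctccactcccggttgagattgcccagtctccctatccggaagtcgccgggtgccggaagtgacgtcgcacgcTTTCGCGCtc
Mcm5: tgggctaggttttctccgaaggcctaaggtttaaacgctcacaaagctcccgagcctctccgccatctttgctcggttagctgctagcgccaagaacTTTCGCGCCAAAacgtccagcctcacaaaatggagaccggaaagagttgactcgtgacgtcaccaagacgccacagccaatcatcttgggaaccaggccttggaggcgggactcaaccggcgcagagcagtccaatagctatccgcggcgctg
Mcm6: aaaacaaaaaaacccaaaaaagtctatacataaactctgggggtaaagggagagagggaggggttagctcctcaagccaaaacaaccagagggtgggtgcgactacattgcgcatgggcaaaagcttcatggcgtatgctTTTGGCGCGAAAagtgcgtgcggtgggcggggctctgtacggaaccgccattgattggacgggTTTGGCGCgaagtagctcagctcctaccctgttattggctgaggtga
The match shown in *Mcm7* begins 165 bases before the start and reads TTTCCCGC on the opposite strand. That of *Rfc3* begins 10 bases before the start, those of *Mcm5* 153 and 149 bases before it, and those of *Mcm6* 110, 106 and 47 bases before it. *Mcm7* and *Rfc3* each had a further match past the bases shown. It was TTTCGCGC, 16 bases after the start, in *Mcm7*, and TTTCCCGC, at the start, in *Rfc3*.

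Of the 6 origin recognition genes, which encode the complex that marks origins, 1 fell. *Orc6* (ENSMUSG00000031697, chromosome 8 from 85299632 to 85308278 in GRCm38) had a lowest, median and highest level of 33.25, 41.33 and 50.44 CPM in *GFP*-NSPCs and 19.36, 29.81 and 40.37 CPM in *Dbx2*-NSPCs. The groups overlapped, with 6 of 8 *Dbx2*-NSPC samples below every *GFP*-NSPC sample. *Orc6* fell by 0.51 on the log2 scale (standard error 0.146, limma adjusted p = 0.0228). Its fold change was -0.60 in numbers 1 to 4 (limma adjusted p = 0.0460) and -0.41 in numbers 5 to 8 (limma adjusted p = 0.0820). The other subunits, *Orc1* to *Orc5*, had log2 fold changes from -0.24 (*Orc5*) to 0.06 (*Orc2*), with limma adjusted p from 0.329 to 0.877. The ends of *Orc2* and *Orc4* lie over *Nif3l1* and *Acvr2a* on the opposite strand. *Orc1*, the subunit that cycles with the cell, had as few as 4 reads in a sample, and its 95% interval ran from -0.74 to 0.56.

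None of the 3 licensing genes passed the test. *Cdc6* and *Cdt1*, the loaders of the MCM ring, had log2 fold changes of -0.17 and -0.09, and *Gmnn*, whose product geminin holds Cdt1 back after replication has begun, had the smallest p of the class. *Gmnn* lay at 13.57, 17.96 and 24.34 CPM (lowest, median and highest) in *GFP*-NSPCs and at 9.15, 13.6 and 24.31 CPM in *Dbx2*-NSPCs. The highest samples of both groups were nearly equal, while 4 *Dbx2*-NSPC samples were below every *GFP*-NSPC sample. The log2 fold change of *Gmnn* was -0.35 (standard error 0.181, limma adjusted p = 0.204).

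The MCM ring is the motor of the replicative helicase. All 6 subunits had negative fold changes over all samples (*Mcm3* 0.04 in numbers 5 to 8 alone), and 2 of them fell. *Mcm7* (ENSMUSG00000029730, chromosome 5 from 138164583 to 138172422) lay at 258.64, 422.06 and 494.83 CPM in *GFP*-NSPCs and at 228.28, 261.27 and 397.06 CPM in *Dbx2*-NSPCs, in the order lowest, median, highest. The overlap came from *GFP*-NSPC replicate 1, since the next lowest *GFP*-NSPC level, 404.35 CPM, was above every *Dbx2*-NSPC sample. *Mcm7* fell by 0.52 on the log2 scale (standard error 0.137, limma adjusted p = 0.0139), by 0.34 in numbers 1 to 4 (limma adjusted p = 0.248) and by 0.70 in numbers 5 to 8 (limma adjusted p = 0.00236). The strand used in counting is not given in the sources used here, and the last 300 bases of *Mcm7* meet *Cops6* on the opposite strand and match *Gm5487* at 98.7% identity, so some of its reads could belong to these genes.

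*Mcm4* (ENSMUSG00000022673, chromosome 16 from 15623897 to 15637400) lay at 55.19, 68.81 and 90.64 CPM in *GFP*-NSPCs and at 29.21, 48.555 and 71.58 CPM in *Dbx2*-NSPCs. Most *Dbx2*-NSPC samples, 6 of 8, were below every *GFP*-NSPC sample, and the highest was well within them. *Mcm4* fell by 0.56 on the log2 scale (standard error 0.169, limma adjusted p = 0.0300), with -0.52 in numbers 1 to 4 (limma adjusted p = 0.151) and -0.59 in numbers 5 to 8 (limma adjusted p = 0.0456). The call over all samples was lost in edgeR on the recovered reads (edgeR adjusted p = 0.0523) and in 6 of the 16 limma fits that left out 1 library, those without *GFP*-NSPC replicate 2, 4 or 6 or *Dbx2*-NSPC replicate 4, 5 or 7, with a limma adjusted p of up to 0.0606. *Mcm2*, *Mcm3*, *Mcm5* and *Mcm6* had log2 fold changes of -0.38, -0.08, -0.27 and -0.23, with limma adjusted p from 0.135 to 0.749. *Mcm5* passed with the replicate number as a block (limma adjusted p = 0.0441) and without *Dbx2*-NSPC replicate 8 (limma adjusted p = 0.0287). In that library *Mcm3* stood at 358.91 CPM, and the next highest *Dbx2*-NSPC level was 244.69 CPM.

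All 8 genes that turn the loaded ring into a moving helicase had negative fold changes, and 2 of them fell. *Cdc45* (ENSMUSG00000000028, chromosome 16 from 18780447 to 18811987), which travels with the MCM ring and GINS, lay at 17.76, 20.58 and 30.66 CPM in *GFP*-NSPCs and at 9.15, 14.095 and 19.58 CPM in *Dbx2*-NSPCs. Of the *Dbx2*-NSPC samples, 6 of 8 were below every *GFP*-NSPC sample. *Cdc45* fell by 0.67 on the log2 scale (standard error 0.175, limma adjusted p = 0.0124), and its fold change was -0.52 in numbers 1 to 4 (limma adjusted p = 0.140) and -0.83 in numbers 5 to 8 (limma adjusted p = 0.0235). *Cdc7* (ENSMUSG00000029283, chromosome 5 from 106964322 to 106984432), the kinase that phosphorylates the MCM ring, lay at 19.74, 27.095 and 37.74 CPM in *GFP*-NSPCs and at 13.02, 16.845 and 25.66 CPM in *Dbx2*-NSPCs. All 8 *Dbx2*-NSPC levels were below the *GFP*-NSPC median, and 5 were below every *GFP*-NSPC sample. *Cdc7* fell by 0.54 on the log2 scale (standard error 0.160, limma adjusted p = 0.0255), with -0.47 in numbers 1 to 4 (limma adjusted p = 0.200) and -0.62 in numbers 5 to 8 (limma adjusted p = 0.0398). Its call over all samples was lost without *GFP*-NSPC replicate 2 or *Dbx2*-NSPC replicate 5 or 6, with a limma adjusted p of up to 0.0543. *Dbf4*, the activating partner of Cdc7, was at -0.19 on the log2 scale (limma adjusted p = 0.299), nearest to 0 in the class. The GINS subunits had log2 fold changes of -0.47 (*Gins1*), -0.35 (*Gins2*), -0.22 (*Gins3*) and -0.21 (*Gins4*), and *Mcm10*, a factor of helicase activation, one of -0.33, with limma adjusted p from 0.175 to 0.396. The end of *Gins2* lies over *Gse1* on the opposite strand, at 22.7 CPM on average, so its reads are uncertain. *Gins1* passed only in the fit without *GFP*-NSPC replicate 5 (limma adjusted p = 0.0428), out of the 16 that each left out 1 library.

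Polymerase alpha and primase start every new strand, and of their 4 subunits 1 fell. *Prim1* (ENSMUSG00000025395, chromosome 10 from 128015168 to 128030037), the catalytic primase subunit, had the smallest adjusted p of the members. It lay at 40.29, 55.14 and 68.1 CPM in *GFP*-NSPCs and at 30.7, 36.05 and 48.62 CPM in *Dbx2*-NSPCs. The overlap lay between *GFP*-NSPC replicates 1 and 5, the lowest of their group, and the 3 highest *Dbx2*-NSPC samples. *Prim1* fell by 0.52 on the log2 scale (standard error 0.120, limma adjusted p = 0.00548) and was the 1 member called in both sets of samples, with fold changes of -0.59 in numbers 1 to 4 (limma adjusted p = 0.0359) and -0.45 in numbers 5 to 8 (limma adjusted p = 0.0386). *Pola2*, *Pola1* and *Prim2* had log2 fold changes of -0.49, -0.21 and -0.14, with limma adjusted p from 0.0897 to 0.649. The last 300 bases of *Pola2* matched transcripts of 320 other genes at 95% identity or more over at least 90 bases, so its reads are uncertain. *Pola1*, which encodes the catalytic subunit, had a log2 fold change of 0.09 in numbers 1 to 4 and -0.51 in numbers 5 to 8. The difference of -0.61 between these sets did not pass (limma adjusted p = 0.127), but passed with the replicate block (limma adjusted p = 0.0387), 1 of 53 members in a fit that called 10.4% of tested genes.

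Among 6 subunits of polymerases delta and epsilon, which extend the lagging and the leading strand, 1 fell. *Pold2* (ENSMUSG00000020471, chromosome 11 from 5872180 to 5878292), an accessory subunit of polymerase delta, lay at 40.64, 54.27 and 68.31 CPM in *GFP*-NSPCs and at 27.1, 41.96 and 50.99 CPM in *Dbx2*-NSPCs. Every *Dbx2*-NSPC level was below the *GFP*-NSPC median, but 5 of 8 lay within the *GFP*-NSPC range. *Pold2* fell by 0.45 on the log2 scale (standard error 0.136, limma adjusted p = 0.0291), with -0.57 in numbers 1 to 4 (limma adjusted p = 0.0209) and -0.33 in numbers 5 to 8 (limma adjusted p = 0.182). Over all samples it lost the call without *GFP*-NSPC replicate 2, 3 or 4 or *Dbx2*-NSPC replicate 1, 5 or 6, with a limma adjusted p of up to 0.0612. *Pold1*, the catalytic subunit, was at -0.48 on the log2 scale (limma adjusted p = 0.0991), and passed with the replicate block (limma adjusted p = 0.0132) and in numbers 1 to 4 alone (limma adjusted p = 0.0273). It also passed with the set of numbers as a covariate, in limma (limma adjusted p = 0.0124) and in edgeR (edgeR adjusted p = 0.0194). *Pold3*, *Pole* and *Pole3* had log2 fold changes of -0.09, -0.19 and 0.01. *Pole2*, named here after its values were seen, was the member with the highest fold change. It lay at 3.63, 6.42 and 8.46 CPM in *GFP*-NSPCs and at 5.38, 8.57 and 10.8 CPM in *Dbx2*-NSPCs, with as few as 7 reads in a sample, and it shares exon bases with *Gm49384* on the same strand. Its log2 fold change was 0.42 (standard error 0.201, unadjusted p = 0.0498, limma adjusted p = 0.171).

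The clamp, its loader and the single-strand binding proteins held no call. *Pcna*, the sliding clamp, had a log2 fold change of -0.11 with a 95% interval from -0.33 to 0.11. The loader genes *Rfc1* to *Rfc5* ran from -0.35 (*Rfc4*) to 0.06 (*Rfc2*), with limma adjusted p from 0.102 to 0.819. The ends of *Rfc4* and *Rfc5* lie over *Eif4a2* and *Wsb2* on the opposite strand, at 23.5 and 87.5 CPM on average. *Rfc3* lay at 62.44, 72.755 and 92.76 CPM in *GFP*-NSPCs and at 44.35, 62.27 and 80.69 CPM in *Dbx2*-NSPCs. *Dbx2*-NSPC samples were in 4 of 8 cases below every *GFP*-NSPC sample. The log2 fold change of *Rfc3* was -0.30 (standard error 0.121, limma adjusted p = 0.102), and it passed with the replicate block (limma adjusted p = 0.0432) and without *Dbx2*-NSPC replicate 8 (limma adjusted p = 0.0490). For replication protein A, which coats single strands, *Rpa1* and *Rpa2* had log2 fold changes of -0.01 and -0.05, with 95% intervals from -0.23 to 0.21 and from -0.26 to 0.16. *Rpa3* lay at 2.06, 6.745 and 10.1 CPM in *GFP*-NSPCs and at 2.36, 3.77 and 6.1 CPM in *Dbx2*-NSPCs. All of its *Dbx2*-NSPC levels were below the *GFP*-NSPC median and none below the lowest *GFP*-NSPC sample. With as few as 5 reads in a sample, the log2 fold change of *Rpa3* was -0.55 with a 95% interval from -1.14 to 0.03 (limma adjusted p = 0.200).

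Lagging strand maturation, which removes primers and joins Okazaki fragments, held 2 calls in 4 genes. *Fen1* (ENSMUSG00000024742, chromosome 19 from 10199132 to 10204169), the flap nuclease, lay at 29.92, 40.98 and 46.88 CPM in *GFP*-NSPCs and at 16.86, 28.73 and 37.14 CPM in *Dbx2*-NSPCs. Of the *Dbx2*-NSPC samples, 5 of 8 were below every *GFP*-NSPC sample. *Fen1* fell by 0.55 on the log2 scale (standard error 0.156, limma adjusted p = 0.0206), with -0.68 in numbers 1 to 4 (limma adjusted p = 0.0377) and -0.42 in numbers 5 to 8 (limma adjusted p = 0.148). Its end lies over *Gm10143* on the opposite strand, and reads of these genes cannot be told apart without the strand. *Rnaseh2b* (ENSMUSG00000021932, chromosome 14 from 62292589 to 62372992), a subunit of the ribonuclease that cuts RNA paired to DNA, lay at 30.48, 39.745 and 50.32 CPM in *GFP*-NSPCs and at 23.48, 27.21 and 34.44 CPM in *Dbx2*-NSPCs. Only *Dbx2*-NSPC replicate 8 reached into the *GFP*-NSPC range. *Rnaseh2b* fell by 0.52 on the log2 scale (standard error 0.128, limma adjusted p = 0.00914), with -0.73 in numbers 1 to 4 (limma adjusted p = 0.00753) and -0.30 in numbers 5 to 8 (limma adjusted p = 0.215). *Rnaseh2a*, the catalytic subunit of the same enzyme, had a log2 fold change of -0.03 with a 95% interval from -0.33 to 0.27. *Lig1*, the ligase that seals the fragments, had one of -0.11 with an interval from -0.36 to 0.14.

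Of the 5 nucleotide supply genes, 4 had negative fold changes and 1 fell. *Dut* (ENSMUSG00000027203, chromosome 2 from 125247190 to 125258608), whose product removes dUTP so that uracil is kept out of DNA, lay at 83.39, 106.59 and 134.1 CPM in *GFP*-NSPCs and at 57.79, 75.715 and 102.98 CPM in *Dbx2*-NSPCs. All 8 *Dbx2*-NSPC levels were below the *GFP*-NSPC median and 5 below every *GFP*-NSPC sample. *Dut* fell by 0.48 on the log2 scale (standard error 0.117, limma adjusted p = 0.00791), with -0.36 in numbers 1 to 4 (limma adjusted p = 0.130) and -0.60 in numbers 5 to 8 (limma adjusted p = 0.00628). The ends of *Rrm2* and *Tyms*, and that of *Rnaseh2a*, closely match annotated copies elsewhere (*Gm48445* and *Gm48455*, *Tyms-ps* and *Gm15703*), so reads could be split or lost between them. *Rrm1* and *Rrm2*, the subunits of ribonucleotide reductase, had log2 fold changes of -0.21 and -0.34, and *Tyms*, thymidylate synthase, one of -0.16, with limma adjusted p from 0.155 to 0.554. *Rrm1* passed without *GFP*-NSPC replicate 1 (limma adjusted p = 0.0323).

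*Tk1*, the thymidine kinase of the salvage pathway, was named after its values were seen, as 1 of the 5 members with a positive fold change, beside *Pole2*, *Orc2*, *Rfc2* and *Pole3*. It lay at 70.31, 109.87 and 126.66 CPM in *GFP*-NSPCs and at 72.48, 129.91 and 256.94 CPM in *Dbx2*-NSPCs. The groups overlapped widely, while by number the *Dbx2*-NSPC sample was lower in 0 of 8 comparisons. In the main fit the log2 fold change of 0.35 did not pass (standard error 0.218, limma adjusted p = 0.311), and with the replicate block it did (limma adjusted p = 0.0329), in a fit that called 10.8% of tested genes higher. With the set of numbers as a covariate it passed in edgeR (edgeR adjusted p = 0.0397) and not in limma (limma adjusted p = 0.0611). The fold change was 0.10 in numbers 1 to 4 (limma adjusted p = 0.745) and 0.59 in numbers 5 to 8 (limma adjusted p = 0.00868). The difference between these sets did not pass (limma adjusted p = 0.229).

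Both subunits of chromatin assembly factor 1 in the list, which places histones on new DNA, had negative fold changes and none was called. *Chaf1a* lay at 57.61, 69.545 and 85.33 CPM in *GFP*-NSPCs and at 44.31, 53.71 and 79.68 CPM in *Dbx2*-NSPCs. *Dbx2*-NSPC samples were below every *GFP*-NSPC sample in 5 of 8 cases. Its log2 fold change was -0.31 (standard error 0.130, limma adjusted p = 0.121, 0.0440 without *Dbx2*-NSPC replicate 8). The end of *Chaf1a* lies over *Ubxn6* on the opposite strand, at 45.2 CPM on average. *Chaf1b* was at -0.16 on the log2 scale (limma adjusted p = 0.542).

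**Figure D3:**
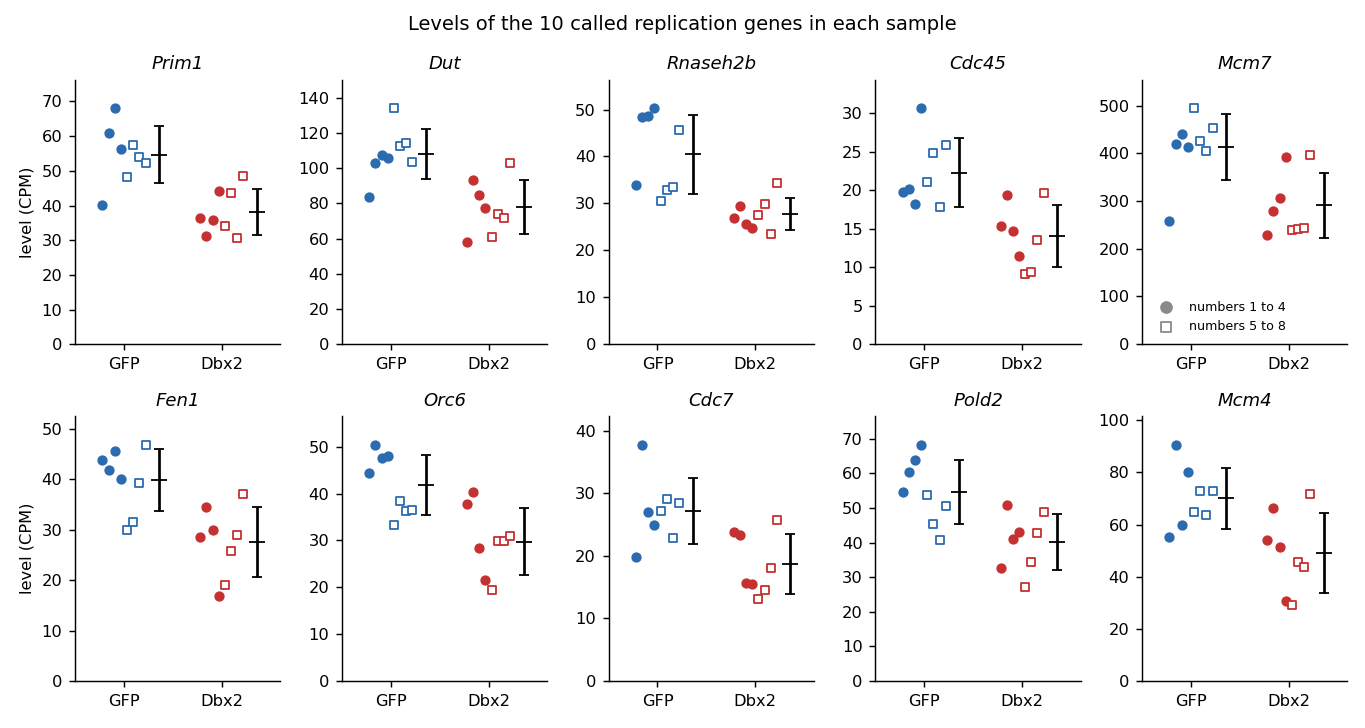
Level in CPM (vertical axis, from 0) of the 10 called members in each of 8 *GFP*-NSPC and 8 *Dbx2*-NSPC samples, with filled circles for numbers 1 to 4, open squares for numbers 5 to 8, and bars for the mean and SD over 8 samples. The groups overlap in every panel, and the *Dbx2*-NSPC mean is the lower one in each.

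By class, the calls were spread over 7 of 11. The MCM ring, helicase activation and lagging strand maturation held 2 calls each, in 6, 8 and 4 genes, with median log2 fold changes of -0.32, -0.34 and -0.31. Origin recognition, polymerase alpha and primase, polymerases delta and epsilon, and nucleotide supply held 1 each, with medians of -0.09, -0.35, -0.14 and -0.21. Licensing, clamp and loader, single-strand binding and chromatin assembly held 0, with medians of -0.17, -0.11, -0.05 and -0.23. At an unadjusted p under 0.05 these held 0, 2, 0 and 1 genes, and in edgeR 0 each. Among the class scores, helicase activation had the largest difference, -0.390, with scores of 0.645 ± 0.228 (SD, n = 8) in *GFP*-NSPCs and 0.255 ± 0.251 (SD, n = 8) in *Dbx2*-NSPCs. Polymerases delta and epsilon had the smallest, -0.147, with 1.04 ± 0.205 and 0.895 ± 0.203 (SD, n = 8 each). The differences were negative in every class in both sets, from -0.413 to -0.0593 in numbers 1 to 4 and from -0.442 to -0.141 in numbers 5 to 8. Every class score overlapped between the groups, and whether classes differed from one another was not tested.

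**Figure D4:**
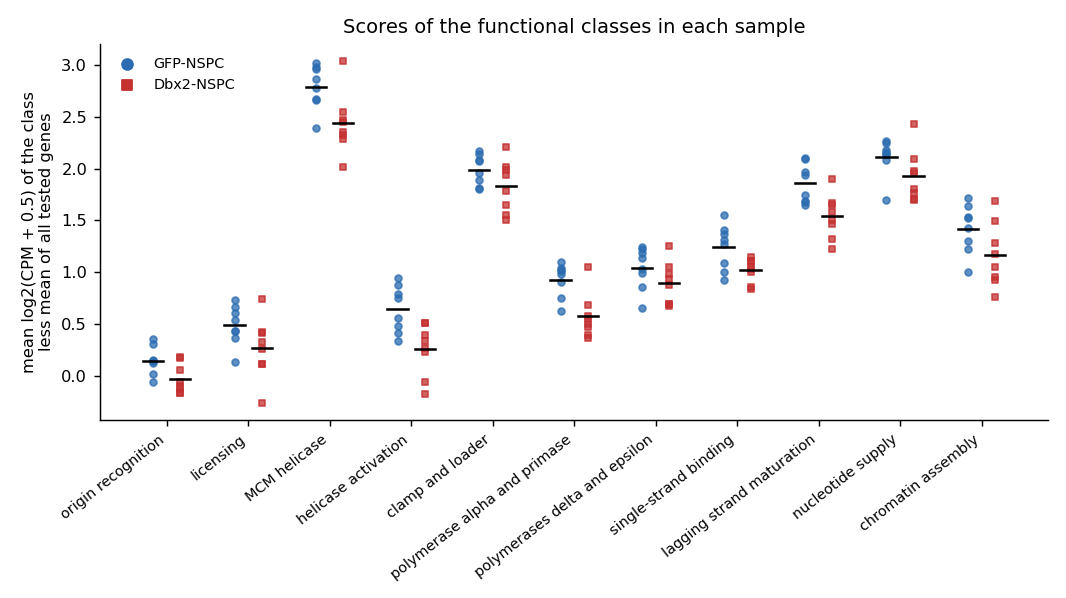
Mean log2(CPM + 0.5) of each functional class less the mean of all tested genes (vertical axis) in each of 8 *GFP*-NSPC (blue circles) and 8 *Dbx2*-NSPC samples (red squares), with black bars for group means. The mean is lower in *Dbx2*-NSPCs in all 11 classes, by 0.147 to 0.390, and the samples overlap in each.

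The sets of samples gave similar medians with different genes past the threshold. In numbers 1 to 4 alone, 6 members fell and 0 rose, beside 7.37% of tested genes that fell and 8.19% that rose, with a median log2 fold change of -0.20. In numbers 5 to 8 alone, 7 of 53 fell and 1 rose, beside 11.7% that fell and 11.5% that rose, with a median of -0.25. The share of members called lower in numbers 5 to 8 was thus near that of all tested genes. The fold change was negative in both sets for 37 of the 53 members. The genes called in numbers 1 to 4 were *Orc6*, *Prim1*, *Pold1*, *Pold2*, *Fen1* and *Rnaseh2b*, and those called lower in numbers 5 to 8 were *Mcm4*, *Mcm7*, *Cdc45*, *Cdc7*, *Pola1*, *Prim1* and *Dut*. The difference between the sets, tested as an interaction in limma, passed for 0 of 53 members, beside 9.44% of tested genes, with 2 at an unadjusted p under 0.05. The same test in edgeR gave 0 as well.

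**Figure D5:**
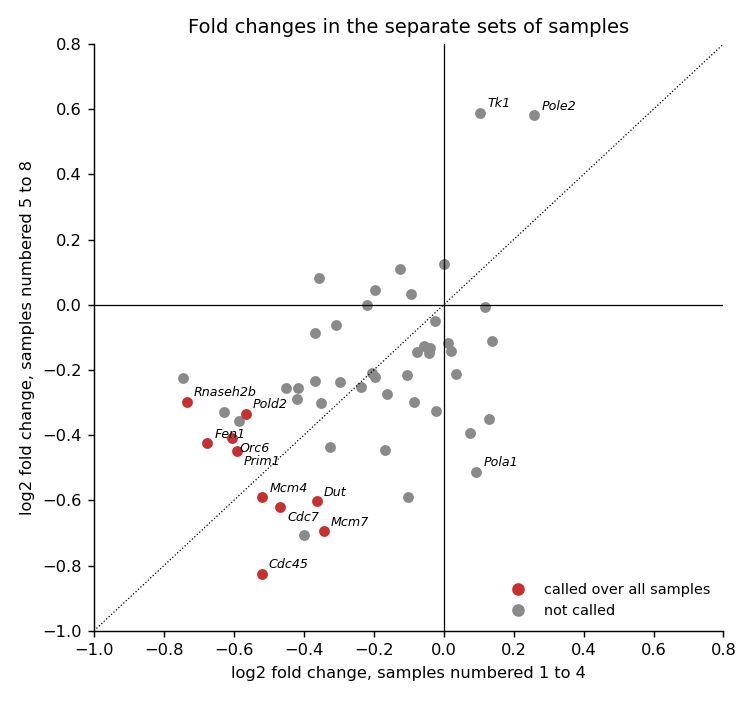
Log2 fold change of the 53 members in the samples numbered 1 to 4 (horizontal axis) and 5 to 8 (vertical axis), 4 samples of each group in each set, with the 10 called members in red and the dotted line marking equal values. Of the points, 37 are negative in both sets, and *Tk1* and *Pole2* are the highest in numbers 5 to 8.

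A further list held genes of replication, its fork and its precursors outside the 53. Of 58 such genes, 9 fell and 0 rose in limma, beside 7.78% and 8.03% of all tested genes. At an unadjusted p under 0.05, 20 were lower (34.5%) and 0 higher, beside 15.1% and 14.1%. They had a median log2 fold change of -0.23, and with the replicate block 14 fell, beside 10.9% of tested genes. *Shmt2*, a mitochondrial enzyme of one-carbon supply, lay at 100.31, 132.59 and 170.08 CPM in *GFP*-NSPCs and at 65.45, 71.52 and 83.97 CPM in *Dbx2*-NSPCs. Its groups did not overlap, and it fell by 0.82 on the log2 scale (standard error 0.114, limma adjusted p = 5.41e-05), with fold changes of -1.004 in numbers 1 to 4 and -0.63 in numbers 5 to 8. *Timeless*, a fork protection factor, lay at 59.62, 90.285 and 118.6 CPM in *GFP*-NSPCs and at 29.92, 44.995 and 61.79 CPM in *Dbx2*-NSPCs, with 1 *Dbx2*-NSPC sample inside the *GFP*-NSPC range. It fell by 0.998 (standard error 0.146, limma adjusted p = 9.61e-05), the largest decrease of the list, with -1.03 in numbers 1 to 4 and -0.97 in numbers 5 to 8. Its partner *Tipin* fell by 0.33 (limma adjusted p = 0.0459), a call lost in edgeR (adjusted p = 0.0680), in DESeq2 (adjusted p = 0.0511) and in 10 of 16 limma fits without a single library (*GFP*-NSPC replicates 2, 3, 4, 6, 7 and 8 and *Dbx2*-NSPC replicates 4 to 7), with a limma adjusted p of up to 0.0931. *Atad5*, which takes PCNA off DNA, lay at 44.72, 56.61 and 64.98 CPM in *GFP*-NSPCs and at 24.4, 36.48 and 43.18 CPM in *Dbx2*-NSPCs, without overlap. It fell by 0.66 (standard error 0.116, limma adjusted p = 5.94e-04), with -0.66 in each set, while *Pcna* itself was not called. *Cmpk1*, a nucleoside monophosphate kinase, fell by 0.56 (limma adjusted p = 0.00981), and *Ppat*, the first enzyme of purine synthesis, by 0.56 (limma adjusted p = 0.0219). The histone chaperone gene *Asf1a* fell by 0.62 (limma adjusted p = 0.0101). In numbers 1 to 4 and 5 to 8 the fold changes were -0.45 and -0.66 for *Cmpk1*, -0.36 and -0.76 for *Ppat*, and -0.29 and -0.94 for *Asf1a*, and none of these genes passed in numbers 1 to 4 alone (limma adjusted p = 0.0640, 0.334 and 0.249). The groups of *Cmpk1*, *Ppat* and *Asf1a* overlapped, with medians of 38.815 and 26.675, 40.845 and 26.86, and 73.55 and 47.76 CPM in *GFP*-NSPCs and *Dbx2*-NSPCs. The other called genes were *Dna2* and *Nasp*, a histone chaperone. *Nasp* was not called in edgeR (adjusted p = 0.0559) or in 7 of 16 limma fits without a single library (*GFP*-NSPC replicates 2, 3, 4 and 8 and *Dbx2*-NSPC replicates 1, 5 and 6), with a limma adjusted p of up to 0.0669.

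Of 15 genes for E2F factors, their partners and pocket proteins, 2 fell and 0 rose in limma, beside 7.78% and 8.03% of all tested genes. At an unadjusted p under 0.05, 3 were lower (20%) and 0 higher, beside 15.1% and 14.1%, and the median log2 fold change was -0.19. *E2f7*, an atypical factor that represses, lay at 11.28, 26.565 and 32.08 CPM in *GFP*-NSPCs and at 5.28, 11.265 and 20.64 CPM in *Dbx2*-NSPCs. The groups overlapped, and *E2f7* fell by 0.95 (standard error 0.265, limma adjusted p = 0.0194), with -0.48 in numbers 1 to 4 (limma adjusted p = 0.353) and -1.41 in numbers 5 to 8 (limma adjusted p = 0.00432). *E2f5*, a factor that acts with pocket proteins, lay at 16.73, 28.935 and 46.59 CPM in *GFP*-NSPCs and at 13.02, 18.265 and 24.1 CPM in *Dbx2*-NSPCs. It fell by 0.64 (standard error 0.192, limma adjusted p = 0.0281), a call lost without *GFP*-NSPC replicate 2, 3 or 4 or *Dbx2*-NSPC replicate 5 or 8, with a limma adjusted p of up to 0.0586. Its fold change was -0.84 in numbers 1 to 4 (limma adjusted p = 0.00556) and -0.44 in numbers 5 to 8 (limma adjusted p = 0.124). The activators *E2f1*, *E2f2* and *E2f3* had log2 fold changes of 0.07, 0.27 and -0.15, with limma adjusted p from 0.325 to 0.757. In single sets there were also increases, of *E2f2* by 0.49 in numbers 1 to 4 (limma adjusted p = 0.0425) and of the pocket protein gene *Rbl2* by 0.51 in numbers 5 to 8 (limma adjusted p = 0.0158). Each was 1 of 15 genes, beside 8.19% and 11.5% of all tested genes called higher in these sets. The difference between the sets did not pass for either gene (limma interaction adjusted p = 0.308 and 0.174).

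Genes that mark cycling cells more broadly give the setting of these values. *Mki67* was at -0.13 on the log2 scale (limma adjusted p = 0.550) and *Top2a* at -0.23 (limma adjusted p = 0.250). *Cdk1* and *Ccnb1*, which drive entry into mitosis, were at -0.62 (limma adjusted p = 0.0509) and -0.35 (limma adjusted p = 0.0333), of which *Ccnb1* was called. *Cdk1* passed with the replicate block (limma adjusted p = 0.0165) and in numbers 5 to 8 alone (limma adjusted p = 0.00127). The call of *Ccnb1* was lost in each set alone (limma adjusted p = 0.0669 and 0.123) and in 6 of 16 limma fits without a single library (*GFP*-NSPC replicates 3, 4, 6 and 7 and *Dbx2*-NSPC replicates 1 and 6), with a limma adjusted p of up to 0.0636. The sum of 4 proliferation markers ran from 1339 to 2157 CPM in *GFP*-NSPCs and from 1246 to 2431 CPM in *Dbx2*-NSPCs, with *GFP*-NSPC replicate 1 lowest and *Dbx2*-NSPC replicate 8 highest for *Mki67* and *Top2a*, as for many members in their groups. The part of the share of cycling cells in the members' changes was not tested.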

How the data were processed

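Libraries of 16 cultures were made from 100 ng of RNA by QuantSeq, which reads the ends of polyadenylated transcripts. The authors checked reads with FastQC 0.11.8, trimmed them, aligned them with STAR 2.5.0a to GRCm38 and deposited 1 table of CPM (gene reads divided by the sample's total and scaled) for 30386 genes, with edgeR 3.36 named in the submitters' processing notes. All sample columns were used, and 0 were left out. The counting strand is not given in the sources used here. Steps in the low values gave the CPM of 1 read (0.304 to 0.554), and 99.9963% of values above 0 were then whole reads within 0.1. Totals were 1804661 to 3294873 reads per sample, and the floor of 3 reads was 0.911 to 1.66 CPM. Intervals and floors cover counting error or the spread of samples only, since the reads carry no molecular identifiers.

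Genes over 1 CPM in at least 4 samples (12533) were tested with limma 3.58.1 (R 4.3.3) on log2(CPM + 0.5), by lmFit and eBayes with trend (2-sided, Benjamini-Hochberg over all tested genes, threshold 0.05). Fold changes on this scale understate those of low genes. The study's methods use the cell line as a covariate, and the labels do not give it. Replicate numbers come from the labels. Same-numbered samples deviated together, with a correlation of their deviations from the group means of 0.152 to 0.303 over the 8 numbers. The mean was 0.199 for other numbers of the same set (1 to 4 or 5 to 8). Within sets it was 0.0403 for the same number and -0.0136 for other numbers, so the correlation lies mostly between the sets. The labels do not say that same-numbered samples are pairs, and these values do not establish it. The fit with the number as a block is therefore given as an alternative.

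Members, classes and lists were chosen with earlier results of these data known. Values per group are given for called members, the member with the smallest p in each class without a call, the 6 other replication genes with the smallest adjusted p, called E2F genes, and *Tk1* and *Pole2*, added after their values were seen. Alternatives were pseudocounts of 0.1 and 2, no filter or a mean of at least 10 CPM, median-of-ratios, TMM and quantile scaling, eBayes without trend, the block, the set of numbers as a covariate, each set alone, and count models of the recovered reads (edgeR 4.0.16, and DESeq2 1.42.0). Leaving out each sample in turn and edgeR with the set as a covariate were chosen after seeing the data. The fits were tested on simulated data. Positions and overlaps are from GENCODE M21 (GRCm38), and near-identical ends were searched over the last 300 bases of a gene. Python 3.11.15 with pandas 2.3.3 and matplotlib 3.10.9 made tables and plots.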

Additional observations from a re-analysis of the deposited data

Results flagged for a closer look

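Of 146 groups of 8 values examined with Dixon's rule for a sample far from the others, 8 stood out, and chance alone marks about 1 in 20 groups. In *Dbx2*-NSPC replicate 8, *Mcm3* was at 358.91 CPM (next sample 244.69), *Mcm5* at 150.25 CPM (next 108.35) and *Chaf1b* at 53.68 CPM (next 39.4), and the score of polymerase alpha and primase was 1.049 (next 0.686). In *GFP*-NSPC replicate 1, *Mcm7* was at 258.64 CPM, below the next sample at 404.35 CPM, and the nucleotide supply score was 1.698, with the next at 2.086. In *Dbx2*-NSPC replicate 4, *Orc4* was at 6.46 CPM (next 14.6) and *Gins3* at 28.35 CPM (next 20.41). *Orc4* shares its end with *Acvr2a* on the opposite strand.

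The fold change differed between the sets of samples, by a limma interaction over all tested genes, for 3 genes of the further lists. These were 2 of the 58 other replication genes and 1 of the 15 E2F and pocket protein genes, with 0 of the 53 members. Of all tested genes 9.44% passed, and none of these lists held a larger share. The difference (numbers 5 to 8 less 1 to 4, log2 scale) was -1.123 for *Mcm9*, a helicase gene of repair (limma adjusted p = 0.0391), with fold changes of 0.05 and -1.07 in numbers 1 to 4 and 5 to 8. For *Asf1a* it was -0.643 (limma adjusted p = 0.0377), with -0.29 and -0.94. *Tfdp2*, an E2F partner, had -0.539 (limma adjusted p = 0.0353), with 0.26 and -0.28. The part of the cell line, which the labels do not give, was not tested.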

How the results depend on the processing

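The count of called members ranged from 6 to 14 over the alternatives. It was 6 in numbers 1 to 4 alone, 13 lower and 1 higher with the replicate block (10.9% and 10.8% of tested genes), and 7 to 13 lower without single samples (6.51% to 9% of tested genes), with 7 without *GFP*-NSPC replicate 2 or *Dbx2*-NSPC replicate 5. With the set of numbers as a covariate, 11 members fell and 0 rose in limma, beside 1533 and 1501 of the 12533 tested genes. In edgeR with that covariate 11 fell and 1 rose, beside 1366 and 1572 tested genes. The median log2 fold change of the members stayed negative, from -0.253 to -0.185, and from -0.28 to -0.17 without single samples. All 10 called members were also called with the block, where *Mcm5*, *Rfc3*, *Pold1* and *Tk1* were added, and it changed no other call of a member. Of the 10, 7 were called in all 16 fits without a single sample (*Orc6*, *Mcm7*, *Cdc45*, *Prim1*, *Fen1*, *Rnaseh2b* and *Dut*). The score difference ranged from -0.28 to -0.216, and from -0.31 to -0.219 without single samples.

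For the other replication genes, against 9 calls, the count was 14 with the replicate block, 15 with the set of numbers as a covariate, 4 in numbers 1 to 4 alone and 14 in numbers 5 to 8 alone, and 7 to 13 without single samples. In the same order, 10.9%, 12.2%, 7.37%, 11.7% and 6.51% to 9% of all tested genes were called lower. The 4 of 58 genes in numbers 1 to 4 were thus near the share of all tested genes. For the E2F list the count was 1 to 3 without single samples, 1 without *GFP*-NSPC replicate 2, 3 or 4 or *Dbx2*-NSPC replicate 5 or 8. Members whose fold differed between the sets numbered 1 with the replicate block and 0 otherwise. The cause of these changes was not tested. Where calls were lost with a set alone or without a sample, fewer samples were fitted. Depth limits the low genes most, such as *Orc1* with 4 reads in a sample, and for 21 of 43 members not called the 95% interval still held a log2 fold change of -0.5.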
